A study of Drosophila melanogaster and Drosophila simulans and Drosophila yakuba with 30 samples.

Results

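Broad Dichaete domains were defined as D. melanogaster Dichaete-Dam binding intervals of 4000 bp or more, and 636 of the 20848 intervals in the list called at an adjusted p-value of 0.05 met this rule. The domains were chosen by their measured length, so their lengths, fragment numbers and all other values of that list are given as a description, with no test. Dichaete and SoxNeuro (SoxN) are group B Sox proteins, HMG-box transcription factors that are expressed in the neuroectoderm and central nervous system of the fly embryo, where they act partly redundantly. In DamID, a protein is joined to a bacterial adenine methylase (Dam), GATC sites near the places it visits become methylated, and the methylated fragments are sequenced. A broad domain is therefore a run of GATC fragments enriched over Dam alone and merged where close together. Short fragments that were not enriched can lie inside it, and it may hold several separate binding sites.

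The study compared whole embryos of 0 to 16 h from 4 Drosophila species, in 10 groups of species and construct with 3 biological replicates each, which makes 30 libraries. D. melanogaster w[1118] and D. simulans w[501] carried pBac3xP3-EGFP-Dichaete-Dam, pBac3xP3-EGFP-SoxN-Dam or, as the control, pBac3xP3-EGFP-Dam. D. yakuba Cam-115 and the reference strain of D. pseudoobscura pseudoobscura carried the Dichaete-Dam or the Dam construct. According to the methods of the study, every construct, Dam alone included, carried UAS sites and an Hsp70 promoter, and the fusions were copied from D. melanogaster constructs, so an introduced protein was assayed in each species beside the endogenous one. The SoxN and Dichaete lists of a species share their Dam-only libraries. Each list was called on 3 fusion and 3 Dam-only libraries together and holds only positions, so values have no spread between replicates and no known read depth. Confidence intervals on shares are exact binomial intervals at 95% and cover counting error only. All positions are those of the UCSC dm3 assembly, counted from 1, and no gene annotation or sequence of that assembly was used here. The authors translated the reads of D. simulans, D. yakuba and D. pseudoobscura to dm3 before calling, and a stretch that did not translate cannot be told apart from a stretch that was not enriched.

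The 636 domains were 3.05% of the D. melanogaster Dichaete intervals and held 16.7% of their bases, 3.66 of 21.9 Mb. Their median length was 5149 bp, with quartiles at 4492 and 6353 bp, and 30 of them reached 10000 bp. A domain merged a median of 19 GATC fragments (range 3 to 130), compared with 3 fragments in intervals under 4000 bp. Their fragments were about as dense as those of intermediate intervals, with a median of 285 bp of interval per fragment, against 290 bp in the 2111 intervals of 2000 to 3999 bp. The domains just inside the rule were 4002 bp (chr4:451397-455398), 4005 bp (chr3L:12702771-12706775), 4013 bp (chr2R:2072078-2076090 and chr3L:10885200-10889212) and 4014 bp (chr3R:20827201-20831214). Just outside it lay intervals of 3994 bp (chr3L:12031231-12035224), 3990 bp (chr2L:1065356-1069345), 3989 bp (chr2L:7008732-7012720), 3987 bp (chr2L:7504814-7508800) and 3982 bp (chr3R:12669167-12673148). Lengths ran on without a break across the threshold, which is therefore a size limit and not a natural class. The number that met it was 350 in the list at 0.01, 352 with a limit of 5000 bp and 1328 with gaps of up to 1000 bp joined first.

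The longest domain, chr3L:16-20265, started at the end of the chromosome sequence and merged 130 fragments over 20250 bp. It was listed with the same start and end for SoxN, had no D. simulans or D. pseudoobscura interval, and held 3 D. yakuba pieces that covered 8.91% of it. A second domain at a chromosome end, chr2L:82-5302, merged 35 fragments over 5221 bp. The next longest were chr2R:9446967-9463408 (16442 bp, 77 fragments), chr3R:911764-925965 (14202 bp, 36 fragments), chr3L:14948803-14962827 (14025 bp, 59 fragments) and chrX:13532745-13545512 (12768 bp, 40 fragments). The remaining 5 of the 10 longest, chr3L:14537242-14549201, chr3R:10405004-10416919, chr3R:4665659-4677552, chr3L:14935750-14947416 and chr3R:21845819-21857361, were between 11543 and 11960 bp long. Domains of similar length thus merged different numbers of fragments, as the 59 fragments in 14025 bp on 3L and the 36 fragments in 14202 bp on 3R show.

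**Figure D1:**
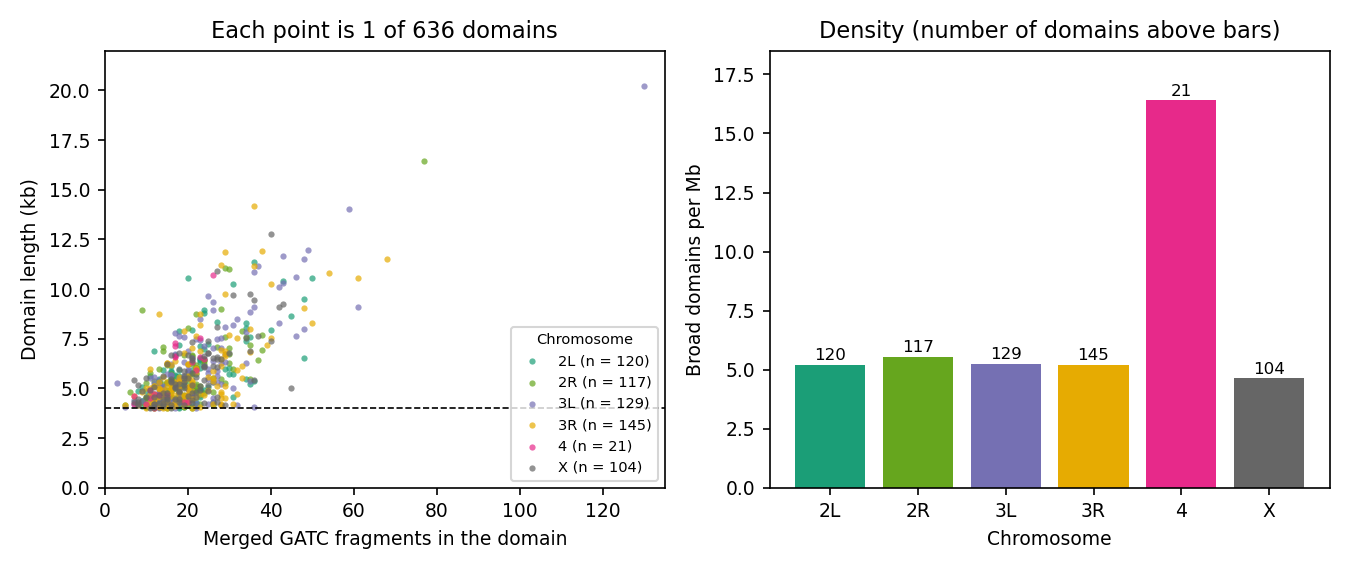
Left, the length in kb of each of the 636 broad domains against the number of GATC fragments it merged, coloured by chromosome, with the 4 kb limit dashed. Right, domains per Mb of each chromosome, with the number of domains above each bar. The longest point is the 20250 bp domain at the end of 3L, and chromosome 4 stands above the other chromosomes with 16.4 domains per Mb.

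Broad domains were spread over the chromosomes in near-even density except on chromosome 4. Chromosomes 2L, 2R, 3L, 3R and X held 120, 117, 129, 145 and 104 domains, between 4.64 per Mb on X and 5.53 per Mb on 2R. Chromosome 4, the small and largely heterochromatic dot chromosome, held 21 domains in 1.28 Mb, or 16.4 per Mb. On chromosome 4 the domains were 5.74% of the Dichaete intervals and 9.39% of the length, against 2.74 to 3.13% of the intervals and 2.61 to 3.23% of the length on the other chromosomes. Dichaete intervals of any length were also denser there, at 286 per Mb compared with 166 to 180 per Mb elsewhere. Chromosome lengths here are the largest interval end in any list.

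Many domains lay close to one another. Between edges, the nearest other domain was a median of 43.3 kb away (quartiles 8.81 and 114 kb). A neighbour within 50 kb was found for 340 of 636 domains (53.5%, 49.5 to 57.4%), and a neighbour within 10 kb for 175 (27.5%). Among domains of 5000 bp or more, 34.9% had another such domain within 50 kb. Linking domains up to 50 kb apart gave 128 clusters of 2 or more domains, 47 of which held at least 3, and left 296 domains single. These values carry no test of clustering.

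In 3 clusters there were 7 domains. The first, chr4:196778-340841, spanned 144 kb of chromosome 4, and domains filled 26.6% of it. The second, chr3L:707074-824232, spanned 117 kb (31.9% in domains), and the third, chr3L:3347992-3456275, 108 kb (34.4%). The clusters differed in the other lists. D. yakuba Dichaete covered 38.7% of the chromosome 4 cluster, 68.2% of the second and 48.7% of the third, and D. simulans Dichaete 16.8%, 40.1% and 38.0%. In the second cluster 4 of 7 domains were whole in D. yakuba, in the sense defined below, and in the other clusters none was.

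The densest of the larger clusters was chr3R:21821520-21867190, where 5 domains filled 76.8% of 45.7 kb. SoxN covered 78.2% of that stretch, D. yakuba Dichaete 81.5%, D. simulans SoxN 83.2% and D. simulans Dichaete 49.2%, while D. pseudoobscura Dichaete covered 18.2%. The surroundings of domains held more interval bases than those of shorter intervals. This is a description, since the D. melanogaster Dichaete list chose the domains and the SoxN list shares its Dam-only libraries. Of the 20 kb on either side of a domain, other D. melanogaster Dichaete intervals filled a median of 27.7%, compared with 20.3% around intervals under 4000 bp. SoxN filled 27.9% against 20.5%, D. simulans Dichaete 15.4% against 12.4%, and D. yakuba Dichaete 38.8% against 30.9%. D. simulans SoxN filled 18.6% against 13.3%, and D. pseudoobscura Dichaete, near the floor, 0.83% against 0%. Long stretches without a domain were seen as well, the longest being 1.40 Mb on 3R (chr3R:22750574-24151161), which held 155 shorter Dichaete intervals.

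SoxN, the other group B protein assayed in D. melanogaster, was listed in each of the 636 domains. A domain was covered by SoxN intervals over a median of 90.5% of its bases (quartiles 75.1 and 100%), and 599 domains (94.2%, 92.1 to 95.9%) were covered over at least 50%. Among all 20848 Dichaete intervals, that share was 77.9%. By bases, SoxN covered 85.3% of the domains and 79.4% of the intervals under 4000 bp. In 231 domains no base lay outside SoxN intervals, a number that was not counted for shorter intervals. Intervals under 4000 bp had a median SoxN coverage of 100%, above the 90.5% of the domains. The comparison was carried out between lists that share the 3 Dam-only libraries.

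The 5 domains with the least SoxN were shorter than the median domain. SoxN covered 0.245% of chr3L:1365822-1369898, 8.60% of chr3L:16980117-16984324, 11.8% of chr4:887373-892277, 14.1% of chr4:1219440-1224056 and 15.7% of chrX:8557158-8561716. They were 4077 to 4905 bp long and merged 5 to 16 fragments. At the stricter Dichaete threshold of 0.01, the first 3 were covered over 47.3%, 44.7% and 21.3%, while the last 2 were covered over 82.3% and 95.6%. The chromosome 4 domain of 4617 bp was whole in D. yakuba although SoxN covered 14.1% of it in D. melanogaster.

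Coverage of the domains by Dichaete in the other species differed among the species, and its order did not follow their distance from D. melanogaster, to which D. simulans is the closest relative of the 3. D. yakuba Dichaete covered a median of 79.5% of a domain (quartiles 58.9 and 96.2%), D. simulans Dichaete 45.7% (24.5 and 64.7%) and D. pseudoobscura Dichaete 0%, with an upper quartile of 7.55%. At least 50% of the bases were covered in 517 domains by D. yakuba (81.3%, 78.0 to 84.2%), in 286 by D. simulans (45.0%, 41.1 to 48.9%) and in 3 by D. pseudoobscura (0.472%, 0.0974 to 1.37%). Over all Dichaete intervals of D. melanogaster the same shares were 54.8% for D. yakuba, 32.0% for D. simulans and 1.16% for D. pseudoobscura. By bases, D. yakuba Dichaete covered 72.8% of the domains and 59.7% of the intervals under 4000 bp. For D. simulans Dichaete these shares of bases were 45.0% and 37.0%, and for D. pseudoobscura Dichaete 6.18% and 2.34%. The lists differ in size, which bears on each of these values. D. yakuba intervals took up 25.7% of the dm3 chromosomes, D. simulans intervals 11.0% and D. pseudoobscura intervals 0.988%, with 18.2% for the D. melanogaster Dichaete list. The study also describes its D. pseudoobscura profiles as noisier, with replicates that reproduced less well.

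**Figure D2:**
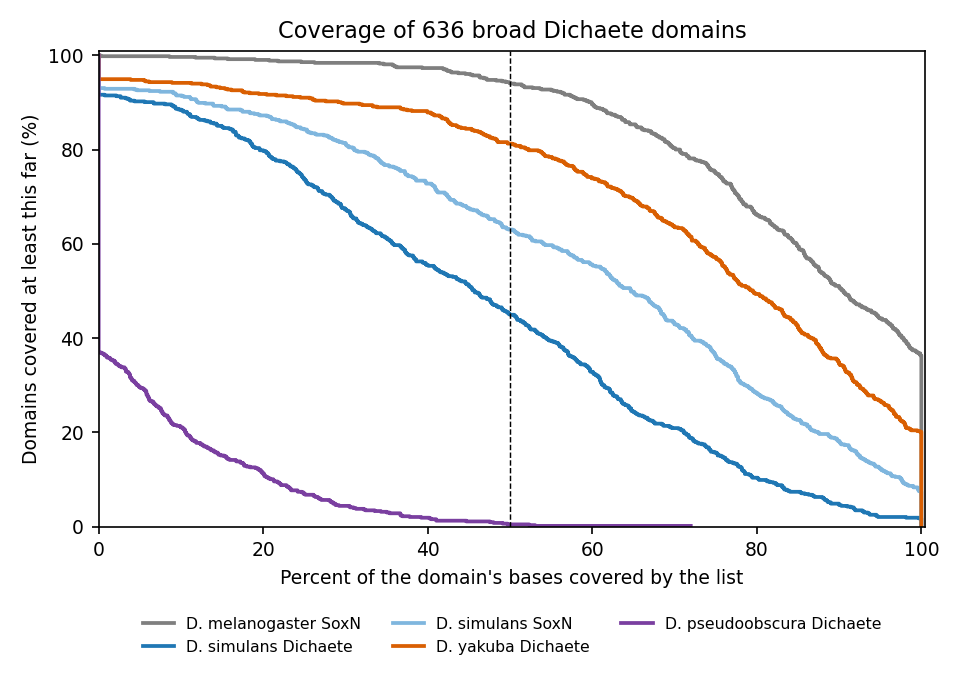
For each list, the share of the 636 domains (vertical axis, percent) that it covers over at least the share of bases on the horizontal axis, with 50% dashed. SoxN lies highest, D. yakuba Dichaete next, then D. simulans SoxN and D. simulans Dichaete, and D. pseudoobscura Dichaete covers 3 domains to 50% or more.

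In D. simulans, SoxN covered more of the D. melanogaster Dichaete domains than Dichaete did. D. simulans SoxN intervals covered a median of 64.7% of a domain and at least 50% of 401 domains (63.1%, 59.2 to 66.8%), compared with 35.9% of all Dichaete intervals. By bases, they covered 60.2% of the domains and 42.4% of the intervals under 4000 bp. Domain by domain, D. simulans SoxN coverage was higher than D. simulans Dichaete coverage in 400 domains, equal in 73 and lower in 163, with a median difference of 11.8 percentage points. Among the 20212 intervals under 4000 bp, D. simulans SoxN covered more in 4915 and less in 3951, and the others were equal. Both lists rest on the same D. simulans Dam-only libraries and the same translation to dm3. D. yakuba Dichaete coverage was higher than that of D. simulans Dichaete in 523 of 636 domains and lower in 77, and among the 20212 shorter intervals it was higher in 9029, equal in 8343 and lower in 2840.

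The covered share of bases was higher in longer intervals in each of the 5 lists, and the domains stood at the upper end. D. simulans Dichaete covered 45.7% of the bases in domains of 6000 bp or more and 44.6% in those of 4000 to 5999 bp, against 42.9% in intervals of 2000 to 3999 bp and 27.8% in those under 500 bp. For D. yakuba Dichaete the shares were 73.2%, 72.5%, 68.6% and 46.0%, and for SoxN 87.9%, 83.4%, 82.1% and 73.5%. The relative gain was widest for D. pseudoobscura Dichaete, which covered 7.90% of the bases in domains of 6000 bp or more and 4.93% at 4000 to 5999 bp, against 3.53% at 2000 to 3999 bp and 1.01% under 500 bp.

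Along the domains, coverage by the other lists was flat in the middle and lower at both ends in D. simulans and D. yakuba. Averaged over 636 domains in 20 equal bins, D. simulans Dichaete covered 36.8% of the first bin and 38.7% of the last, compared with 48.0% of each of the 2 central bins. D. yakuba Dichaete covered 65.4% and 66.8% of the end bins and 74.1% and 74.0% of the central ones. SoxN of D. melanogaster covered 81.2% and 85.4% of the end bins against 85.7% and 86.0% in the centre.

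**Figure D3:**
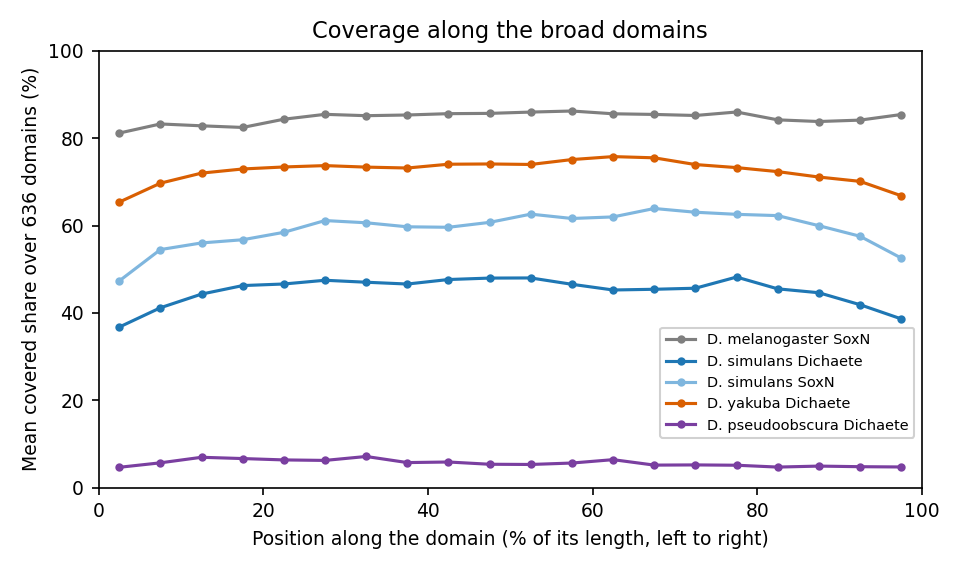
Mean share of bases covered (vertical axis, percent, over 636 domains) in 20 bins along the length of a domain (horizontal axis, percent of length, left to right on the chromosome), for the 5 other lists. The D. simulans and D. yakuba lines are lower in the outermost bins than in the centre, and the D. pseudoobscura line stays between 4.70 and 7.17%.

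Each domain was placed in 1 of 4 classes for each list. It was called whole where 1 interval covered at least 90% of it, broken where 2 or more intervals overlapped it and none reached 90%, shortened where a single interval covered less than 90%, and absent where no interval overlapped it. In SoxN, 266 domains were whole (41.8%, 38.0 to 45.8%), 308 broken, 62 shortened and 0 absent. Among all Dichaete intervals 63.3% were whole in SoxN. Short intervals are spanned by a single interval more readily, so that for this class the background is higher by construction. The broken and shortened classes were not counted over all Dichaete intervals. A longer interval meets 2 or more intervals of a list more readily, so the broken counts below depend on length as well. In D. yakuba Dichaete, 170 domains were whole (26.7%, 23.3 to 30.4%, with 39.8% of all intervals), 315 broken, 119 shortened and 32 absent. In D. simulans Dichaete, 19 were whole (2.99%, 1.81 to 4.63%, with 18.1% of all intervals), 430 broken, 134 shortened and 53 absent. D. simulans SoxN left 85 whole (13.4%, 10.8 to 16.3%, with 21.0% of all intervals), and D. pseudoobscura Dichaete left 0 whole, 84 broken, 151 shortened and 401 absent. The whole class depended on the threshold and on joining. With gaps of up to 1000 bp joined in the compared list it held 66.7% of the domains in SoxN, 47.3% in D. yakuba Dichaete and 13.2% in D. simulans Dichaete, and with the SoxN list at 0.01 it held 19.2% in SoxN. When 80% of the domain sufficed it held 5.82% in D. simulans Dichaete, and among the domains of the 0.01 list 6%.

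**Figure D4:**
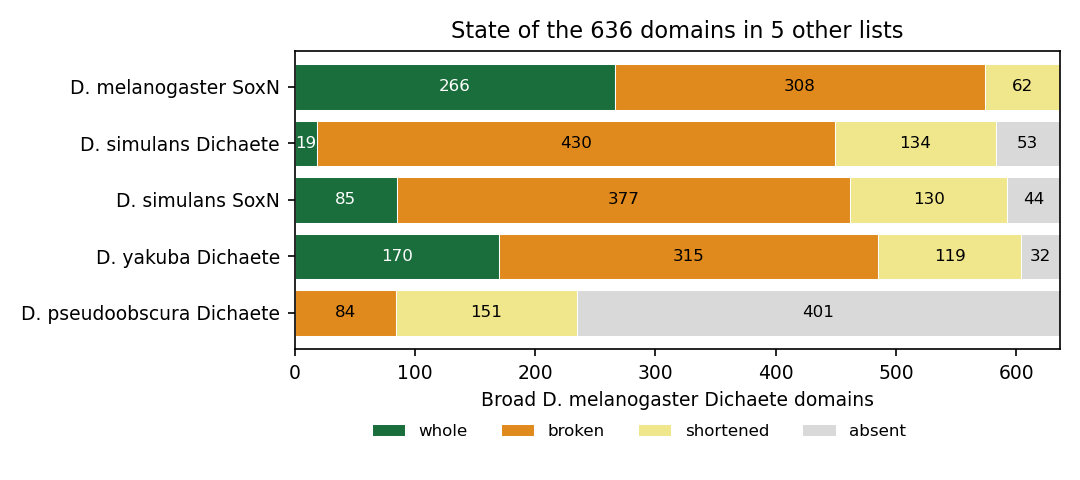
Number of the 636 domains (horizontal axis) that are whole, broken, shortened or absent in each of the 5 other lists. The whole class holds 266 domains in SoxN and 170 in D. yakuba Dichaete but 19 in D. simulans Dichaete, where 430 domains are broken.

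Most gaps that broke domains up in D. simulans Dichaete were at most 1000 bp long. In the 430 domains broken in D. simulans Dichaete there were 711 inner gaps with a median of 893 bp (quartiles 560 and 1391 bp), and 399 of them (56.1%) were at most 1000 bp. Inner gaps made up 61.8% of the bases missing from these domains, and the remainder was missing at the ends. D. yakuba Dichaete intervals covered 74.0% of the bases in these gaps, against 79.4% of all bases in the same domains, and SoxN covered 81.0% against 86.3%. D. simulans SoxN covered 50.4% of them, against 66.3% of the same domains. Most bases in the inner gaps of these domains were thus listed in D. yakuba, at a lower share than all bases of the same domains. Bases missing at the ends were not looked at in this way.

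In D. yakuba, 315 broken domains held 425 inner gaps with a median of 751 bp. D. simulans Dichaete covered 24.9% of the bases in those gaps, against 43.2% of all bases in the same domains. SoxN broke 308 domains at 438 gaps, with a median of 736 bp, and D. yakuba Dichaete covered 59.9% of those gap bases, against 72.0% of the domains. Bases in the inner gaps of a list were covered less often by the other lists than the domain as a whole in each of these comparisons.

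A domain was whole in D. yakuba and broken in D. simulans far more often than the reverse. Of 636 domains, 124 (19.5%) were whole in D. yakuba and broken in D. simulans, 4 were whole in D. simulans and broken in D. yakuba, and 9 were whole in both. A further 240 (37.7%) were broken in both, 30 were whole in D. yakuba and shortened in D. simulans, and 7 were whole in D. yakuba and absent from the D. simulans list. The 2 species differ in list size as given above, and the part of this in the counts was not tested. These joint classes were not counted over all Dichaete intervals. Among the 20212 intervals under 4000 bp, D. yakuba Dichaete coverage was also higher than that of D. simulans Dichaete in 9029 and lower in 2840.

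The domain whole in D. yakuba with the most pieces in D. simulans was chr3L:14948803-14962827. A D. yakuba interval of 19351 bp (chr3L:14942432-14961782) covered 92.5% of it and reached left into the neighbouring domain. In D. simulans, Dichaete was listed there in 9 pieces that covered 41.4%, among them 4 of 1 fragment each (chr3L:14951954-14952087, chr3L:14954619-14954940, chr3L:14955582-14956146 and chr3L:14959763-14959793). D. simulans SoxN covered 94.4% of the same domain in 2 intervals, and D. pseudoobscura Dichaete 49.7% in 6. SoxN of D. melanogaster ended at the same base as the D. yakuba interval, 14961782, and both lists took up again at 14962018.

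In 4 other domains the D. yakuba list held a single interval where D. simulans Dichaete was in 5 pieces. The domain chr3L:14537242-14549201 was covered over 100% by D. yakuba Dichaete and by SoxN, and over 78.5% by D. simulans Dichaete. In chr3L:9841328-9851636 the D. simulans pieces covered 74.4%, and in chr3R:11812039-11818191 they covered 55.6%. The domain chr2L:5231441-5241701, 10261 bp long, had an interval with exactly the same start and end in SoxN, D. simulans SoxN and D. yakuba Dichaete. There D. simulans Dichaete covered 53.2%, with its longest piece at chr2L:5236487-5239400 (2914 bp), and D. pseudoobscura Dichaete covered 37.8% in 5 pieces.

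The 4 domains whole in D. simulans and broken in D. yakuba were 4015 to 6376 bp long. In chr3L:631295-637670 (6376 bp), a D. simulans Dichaete interval covered 99.7%, and 3 D. yakuba intervals covered 43.6%. The third of those D. yakuba intervals, chr3L:636644-648179, ran for 11536 bp across a gap of 643 bp in D. melanogaster into the next domain, chr3L:638314-648924. The others were chrX:6592046-6596837, chr3R:22746429-22750573 and chr3L:8687554-8691568, between 4015 and 4792 bp long, in which 2 D. yakuba intervals covered 92.3%, 87.2% and 91.8%. In these 3 the breaks in D. yakuba were therefore narrow.

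The 9 domains whole in both species were 4165 to 10611 bp long, and 4 of them were whole in SoxN too. These 4 were chr3R:27427673-27433240, chr3R:10545858-10550669, chrX:12115350-12119935 and chr3R:11446462-11450626. The longest of the 9, chr3L:638314-648924, was covered over 93.0% by 1 D. simulans and over 93.0% by 1 D. yakuba interval, while SoxN was in 3 pieces and covered 76.3%. None of the 9 had a D. pseudoobscura interval, except chr3L:638314-648924, where 2 intervals covered 8.06%.

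**Figure D5:**
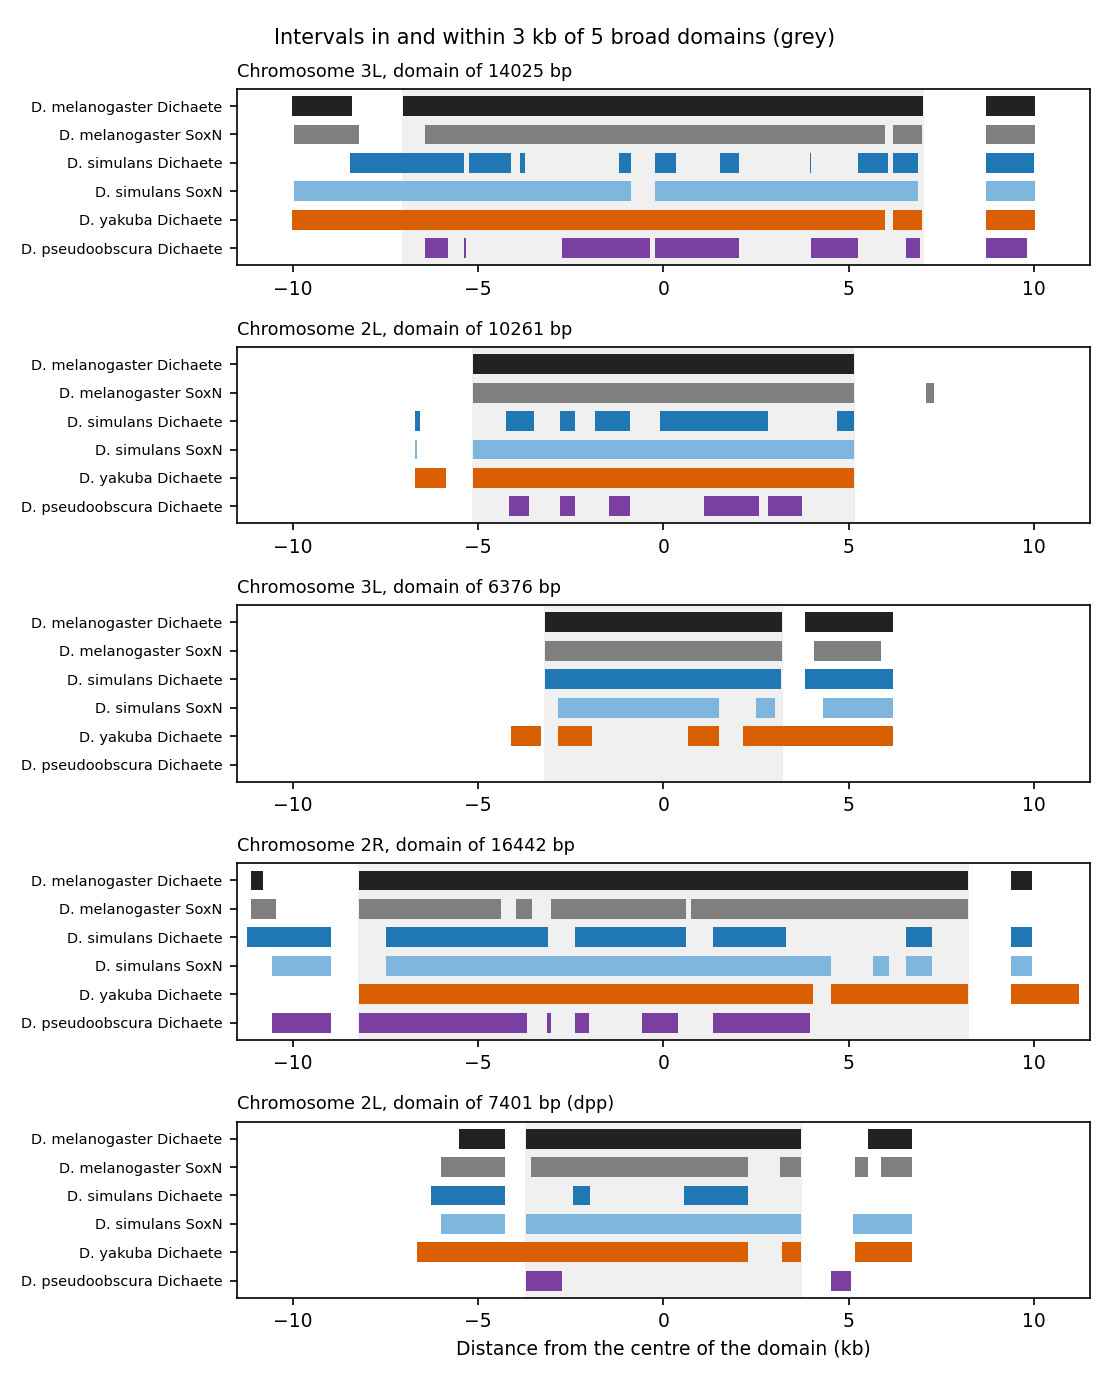
Intervals of the 6 lists in 5 broad domains (grey) and up to 3 kb on each side, as distance in kb from the centre of the domain. From the top, the 3L domain of 14025 bp with 9 D. simulans Dichaete pieces, the 2L domain of 10261 bp with 5, the 3L domain of 6376 bp whole in D. simulans and in 3 D. yakuba pieces, the 2R domain of 16442 bp, and the 2L domain of 7401 bp at dpp.

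The domain at decapentaplegic (dpp), which encodes a BMP ligand that patterns the dorsal embryo, lay at chr2L:2446992-2454392 in the region that the study draws for this locus. Its place relative to the gene's exons was not analysed here. The domain merged 34 fragments over 7401 bp. D. simulans SoxN held an interval with the same start, end and number of fragments, whereas D. simulans Dichaete was listed in 2 pieces of 462 and 1719 bp that covered 29.5%. D. yakuba Dichaete covered 87.8% in 2 pieces and SoxN 86.6% in 2, and both left a gap that began after base 2452978. A D. pseudoobscura interval of 973 bp covered the first 13.1%.

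D. pseudoobscura Dichaete reached 235 domains, and only in 3 of them did it cover 50% or more, or in 12 with gaps of up to 1000 bp joined. Its intervals were absent from 63.1% of domains, compared with 85.3% of intervals of 2000 to 3999 bp and 98.8% of those under 500 bp. Any overlap ends absence, and a longer interval meets one more readily. The highest coverage was 72.0%, in 4 pieces, in chr2L:2160280-2166829, a domain of 48 fragments over 6550 bp that SoxN and D. yakuba Dichaete each covered as a single interval over at least 96.2%. It was followed by chr2R:7897489-7901670 with 53.1%, all of it in 1 fragment of 2219 bp, and by chr2R:9446967-9463408 with 52.3% in 5 pieces. The domains chr3L:14948803-14962827 and chr3L:16701283-16705528 had 49.7% and 49.1%. The second longest domain of all, on 2R, thus had D. pseudoobscura binding over 52.3% of 16442 bp, and a stretch of 3100 bp in it (chr2R:9447721-9450820) was listed in all 6 lists.

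A stretch common to SoxN, D. simulans Dichaete and D. yakuba Dichaete lay in 560 of 636 domains (88.1%, 85.3 to 90.5%), and its longest run had a median of 1357 bp. Over all Dichaete intervals the share with such a stretch was 35.5%, but a longer interval meets a common stretch more readily. By bases, the common stretches took up 36.2% of the domains and 25.2% of the intervals under 4000 bp. The longest was 5678 bp, chr3L:641546-647223, in the domain that was whole in both species. With D. simulans SoxN and D. pseudoobscura Dichaete added, 168 domains (26.4%, 23.0 to 30.0%) still had a stretch in every list, with a median longest run of 420 bp, compared with 2.61% of all Dichaete intervals. These stretches made up 3.13% of the bases in domains and 0.836% of those in intervals under 4000 bp.

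On chromosome 4 the domains were covered less by the other species. The median coverage of its 21 domains was 14.3% by D. simulans Dichaete, 26.5% by D. simulans SoxN and 42.6% by D. yakuba Dichaete. On the other chromosomes the medians were 30.3 to 56.8% for D. simulans Dichaete, 52.5 to 69.9% for D. simulans SoxN and 73.8 to 84.5% for D. yakuba Dichaete. SoxN of D. melanogaster covered a median of 81.6% on chromosome 4 and 84.4 to 94.0% elsewhere. Chromosome 2L was the lowest of the major arms for D. simulans Dichaete, at 30.3%, and for D. yakuba Dichaete, at 73.8%.

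No interval of D. simulans Dichaete or D. yakuba Dichaete overlapped 24 domains, and 23 of these had no interval in any list of the other species. The exception, chr3L:7976901-7982173, merged 3 fragments over 5273 bp and was covered over 100% by D. simulans SoxN. The 5 longest of the 24 were chrX:21408918-21416289 (7372 bp), chr2L:12934203-12941418 (7216 bp), chr2L:20576375-20583386 (7012 bp), chr2L:19347330-19353659 (6330 bp) and chr3L:22548895-22555040 (6146 bp), and SoxN of D. melanogaster covered 89.6 to 100% of each. Taken 1 list at a time, absence was commoner in shorter intervals, which meet an interval of another list less readily. D. simulans Dichaete was absent from 8.33% of domains, 17.6% of intervals of 2000 to 3999 bp and 71.9% of those under 500 bp. For D. yakuba Dichaete these shares were 5.03%, 8.53% and 53.4%. The share absent from both lists was not computed over all Dichaete intervals.

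The 23 domains with no interval in another species were bound by SoxN in D. melanogaster, and fewer of them had an interval of another list nearby. Their median SoxN coverage was 96.5%, against 90.3% in the other 613 domains. In SoxN, 12 of the 23 were whole (52.2%), against 41.4% of the other 613 and 63.3% of all Dichaete intervals. A D. yakuba Dichaete interval lay within 5 kb outside 14 of the 23 (60.9%), against 97.6% of the other domains, and a D. simulans Dichaete interval within 5 kb of 7 (30.4%), against 88.4%. A D. simulans SoxN interval lay that near to 10 (43.5%), against 92.5%, and 15 of the 23 had an interval of at least 1 list of another species there. SoxN of D. melanogaster, outside the domain, was within 5 kb of 20 (87.0%), against 98.0%. D. yakuba Dichaete filled a median of 7.42% of the 20 kb on each side, compared with 39.3% around the other domains. Whether the sequence of these domains exists at the same place in the other genomes was not tested.

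Several of the 23 were alike in size, which was looked at after their values were seen. The domains chr2L:21347706-21353336 and chr3R:26505397-26511027 were both 5631 bp long and both merged 20 fragments. Another 3, chr2L:1679133-1685145, chr2L:10157674-10163688 and chr2L:15446207-15452220, were 6013, 6015 and 6014 bp long with 23, 22 and 22 fragments. A domain alike within 2 bp and 1 fragment was found for 5 of the 23 (21.7%) and for 78 of the other 613 (12.7%). Such matches were thus not particular to the 23, and no conclusion is drawn from these counts. The middle of the interval length per fragment in the 23 was also narrow, with quartiles of 273 and 295 bp, against 230 and 354 bp in the other domains. The bounds of a domain-free stretch of 1.21 Mb on 2L were set on both sides by domains of this kind, chr2L:11713988-11719291 and chr2L:12934203-12941418. Sequence identity between these domains was not examined here.

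Seen from the other species, broad intervals were more numerous in D. yakuba and fewer in D. simulans than in D. melanogaster. In dm3 coordinates the D. yakuba Dichaete list held 1354 intervals of 4000 bp or more (6.46% of its intervals) and the D. simulans Dichaete list 161 (0.999%). In the coordinates of their own genomes the counts were 1274 and 177, so that the order of the species was the same before translation. For SoxN the count was 359 in D. simulans and 471 in D. melanogaster, and D. pseudoobscura Dichaete had 5 in dm3 and 4 in its own genome. D. simulans Dichaete therefore had fewer broad intervals than D. simulans SoxN, whereas in D. melanogaster the order was the opposite, with 636 for Dichaete and 471 for SoxN.

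Of the broad D. yakuba intervals, 108 (7.98%) were whole in the D. melanogaster Dichaete list, 878 (64.8%) broken, 327 shortened and 41 absent. Of the broad D. simulans intervals, 45 (28.0%) were whole, 83 (51.6%) broken, 30 shortened and 3 absent. A broad D. yakuba interval overlapped 350 of the 636 D. melanogaster domains (55.0%), and a broad D. simulans interval overlapped 75 (11.8%). Broad intervals held 8.55 Mb in D. yakuba and 0.930 Mb in D. simulans, and the part of this in the counts was not tested. None of these shares was counted over intervals of all lengths. Among 10 pairs of D. melanogaster domains separated by at most 1000 bp, a single D. yakuba interval spanned the gap in 6, a single D. simulans SoxN interval in 3, and a single interval of SoxN or of D. simulans Dichaete in 1 each.

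The longest D. yakuba interval broken up in D. melanogaster, chr3R:8294229-8329707, ran for 35479 bp, and 6 D. melanogaster Dichaete intervals covered 56.9% of it, 2 of them broad domains. The next were chrX:20067732-20091816 (24085 bp) with 4 D. melanogaster pieces that covered 10.8%, and chr2L:6425368-6447716 (22349 bp) with 13 pieces that covered 39.5%. The interval chr3L:14942432-14961782 joined 2 of the 10 longest D. melanogaster domains, which covered 92.8% of it, and chr3R:16088749-16106436 (17688 bp) held 5 pieces. The long D. yakuba intervals therefore ranged from joined D. melanogaster domains to stretches with little D. melanogaster Dichaete.

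The longest broken D. simulans interval, chr3R:16966438-16978053, was 11616 bp long, and D. melanogaster Dichaete covered 12.0% of it in 2 pieces of at most 904 bp. The others among the 5 longest, chr3L:1152302-1163339, chr2R:10776304-10787303, chr2R:11006315-11017005 and chr2L:8013564-8024243, were 10680 to 11038 bp long and covered over 21.0 to 49.8%. SoxN of D. melanogaster covered between 7.78 and 37.6% of these 5 intervals, so that neither D. melanogaster list filled them.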

How the data were processed

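Positions of Dichaete-Dam and SoxN-Dam binding were taken from the interval lists that the authors deposited for 30 DamID-seq libraries. Per the labels and methods, reads were trimmed with cutadapt, mapped with Bowtie2, counted on GATC fragments and compared with Dam-only libraries by DESeq2 1.6.1, and enriched fragments close together were merged. Reads of D. simulans, D. yakuba and D. pseudoobscura were translated to dm3 with LiftOver. A deposited list gives chromosome, start, end and a number taken here as merged fragments, inferred from its values, since the lists have no header. The lists hold no counts per library.

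Lengths, distances, covered bases and classes come from scripts in Python 3.11.15 with NumPy 2.4.6 (percentiles), SciPy 1.17.1 (binomial intervals) and Matplotlib 3.10.9 (plots). The interval functions were tested on simulated lists. Coverage is the share of a domain's bases inside a list, from 1 bp of overlap. Regions named were the extremes by length, coverage, pieces and cluster size. Members and rules were chosen with earlier results of these data known. Genes and sequences were not assigned, since the annotation at hand is of another assembly than dm3.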

Additional observations from a re-analysis of the deposited data

How the results depend on the processing

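Of the 43 alternatives, 14 stayed within the interval of the reported share or within 1.5 times the reported count. The other 29 moved beyond these limits. The number of domains was 1328 with gaps of up to 1000 bp joined first, 350 in the list at 0.01 and 352 from 5000 bp. A neighbour was found for 37.4% of domains within 20 kb and for 71.5% within 100 kb, and within 50 kb for 34.9% of domains from 5000 bp and 40.9% of those at 0.01. With gaps joined, the share covered over at least 50% was 96.4% for SoxN, 53.5% for D. simulans and 1.89% for D. pseudoobscura, and for domains at 0.01 it was 97.7% for SoxN, 54.3% for D. simulans and 86.0% for D. yakuba. For SoxN it was 96.0% from 5000 bp and 81.8% with SoxN at 0.01. Whole domains were 66.7% in SoxN, 13.2% in D. simulans and 47.3% in D. yakuba with gaps joined, 49.5%, 5.82% and 35.1% when 80% sufficed, and 58.0%, 6% and 32.9% among domains at 0.01. They were 23.3% in D. yakuba from 5000 bp and 19.2% in SoxN with SoxN at 0.01. Several of these directions were set by construction. Joining gaps removes breaks, an 80% rule can only add to the whole class, and a 5000 bp limit can only lower the number of domains. A limit of 20 kb or 100 kb can only lower or raise the share with a neighbour, and SoxN at 0.01 can only lower SoxN coverage. The cause of the other changes was not tested.

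Domains whole in D. yakuba and broken in D. simulans outnumbered the reverse under 3 of 3 alternatives, by 159 to 10 when 80% sufficed, by 120 to 10 with gaps joined and by 95 to 4 with intervals from 500 bp only. Of the broad D. simulans and D. yakuba intervals together, 10.1% were whole in D. melanogaster, and 5.68% with D. melanogaster at 0.01, 13.3% when 80% sufficed and 18.7% with gaps joined. At 0.01, 626 of the 636 domains were still covered over at least 50% (98.4%), but 257 were whole and 314 broken.

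No paired analysis was possible because the lists pool the replicates, and leaving out a replicate was not run. Library depth, not known here, limits which fragments each list holds.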
